A study of Saccharomyces cerevisiae with 2 samples.

Results

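The proteasome subunit genes of budding yeast (Saccharomyces cerevisiae) were taken from a genome-wide tiling array by name. A probe belonged to the set when the array annotated it to 1 of 34 listed genes, or when it lay in an intergenic region between divergent genes with 1 of them on either side. By this rule 33 of the 34 genes were found, out of 5652 genes on the array. They were covered by 203 probes, of which 70 lay upstream of a gene and 133 inside a coding region, and 199 of them passed the filters. BLM10 was not found by that name and is described apart, under the name BLM3. The other listed genes encode 14 subunits of the core particle, 10 of the base, 8 of the lid and UMP1, and they are spread over 13 chromosomes.

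Each of 2 arrays, replicates 1 and 2, carried nucleosomal DNA labelled with Cy5 and genomic DNA labelled with Cy3. The cells had been arrested with alpha factor, the mating pheromone that holds yeast cells before DNA replication. Their chromatin was digested with micrococcal nuclease (MNase), which cuts the linker DNA between nucleosomes, and the comparison DNA came from sonicated chromatin. The arrays form 1 group, the dyes were not exchanged between them, and the material had been amplified linearly before labelling. Unarrested cells and naked DNA digested in the same way were not analysed here. Strain and growth conditions are not given in the sources used here.

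The proteasome degrades proteins that carry ubiquitin chains. Its core particle is a barrel of stacked rings with the proteolytic sites inside, made of alpha and beta subunits. A regulatory particle caps the barrel, with a base that holds the ATPases that unfold substrates and a lid that removes ubiquitin. In yeast the transcription factor Rpn4 binds upstream of many of these genes and activates them together, and Rpn4 is itself degraded by the proteasome. Promoters of active yeast genes are known for a stretch with few nucleosomes just ahead of the start of transcription, flanked by positioned nucleosomes.

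The measure used throughout is the log2 of Cy5 over Cy3 signal, less the array's median over non-control probes. A value above 0 thus means a higher ratio of signal labelled nucleosomal to signal labelled genomic than at a typical probe. Mitochondrial DNA, which histones do not package, had a median of 4.50 over 222 probes against -0.0044 over 41232 nuclear probes. What the sign means for nucleosomes was not tested. Values are given for the channels as labelled, and the files used here do not settle whether the dyes ran as labelled. If they ran the other way, every sign and every call above or below would turn. Gene values are means over the probes of a gene, and ± is the SD over n = 2 arrays throughout. The arrays correlated with r = 0.998 across probes. Both lay on 1 slide and the labels name no separate cultures. The limma p-values thus reflect no more than how far the arrays differ from each other, which may be technical. The number of arrays limits the precision, and exact sign flipping over 2 arrays gives no p under 0.5. A gene is called above or below when its limma p, adjusted by Benjamini-Hochberg over all genes of the table, was under 0.05.

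Upstream of their coding regions most proteasome genes lay above the array median, as most yeast genes did. Of the 32 members with upstream probes 23 were called above and 9 below. Over all 5190 genes tested, 76.9% were called above and 19.8% below, or 96.7% in either direction, so the members' shares were near the background. Their median was 0.74, against 0.83 over all genes, whose quartiles were 0.13 and 1.62. The members ranged from -1.14 at RPN11 to 2.96 at RPN10, and all 32 had the same sign on both arrays. The adjusted limma p-values of the members reached at most 0.0152, that of PRE6. With loess or without centring the median of all genes moved to 0.66 or 0.70, and that of the members to 0.61 under either. The order of the medians turned in other settings. The members had 1.03 against 0.81 over all genes after normexp, and 0.99 against 0.68 with the nearest upstream probe alone.

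**Figure D1:**
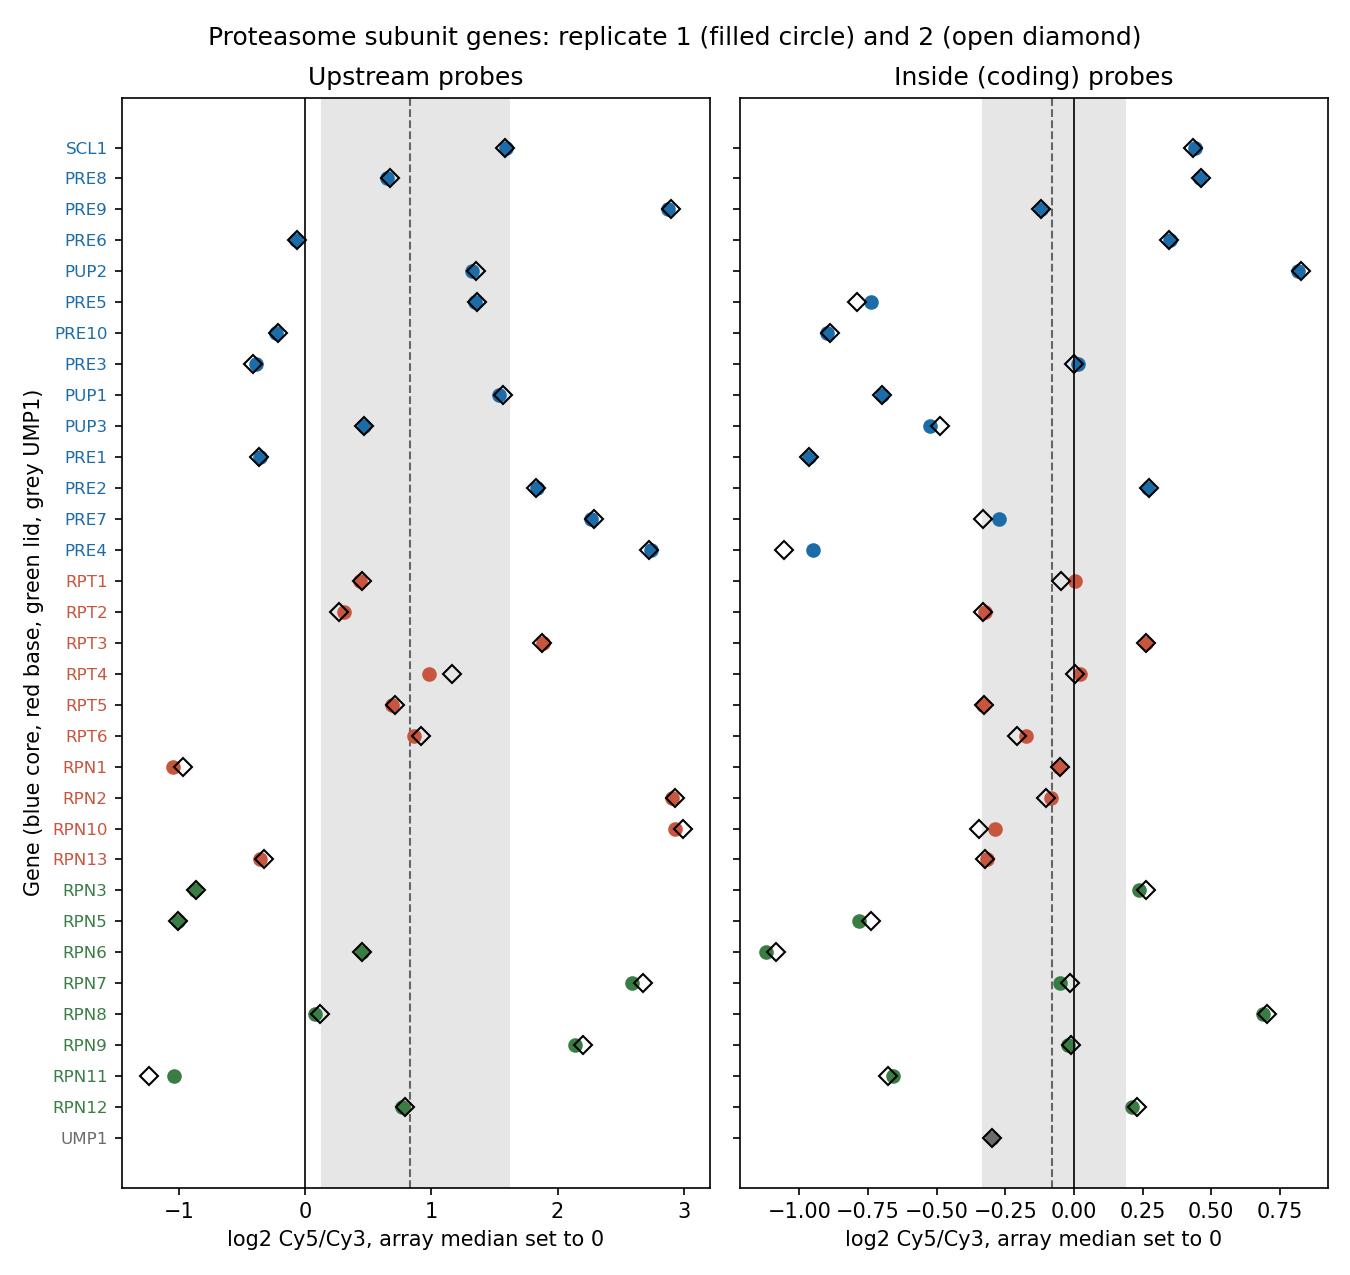
Log2 Cy5/Cy3 of each proteasome gene on replicate 1 (filled circle) and replicate 2 (open diamond), for upstream probes at left and coding probes at right, with different horizontal scales. The solid line is the array median, the dashed line the median of all genes (0.83 upstream, -0.082 inside) and the grey band their quartiles. The replicates nearly coincide while the genes spread from -1.14 to 2.96 upstream.

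**Figure D2:**
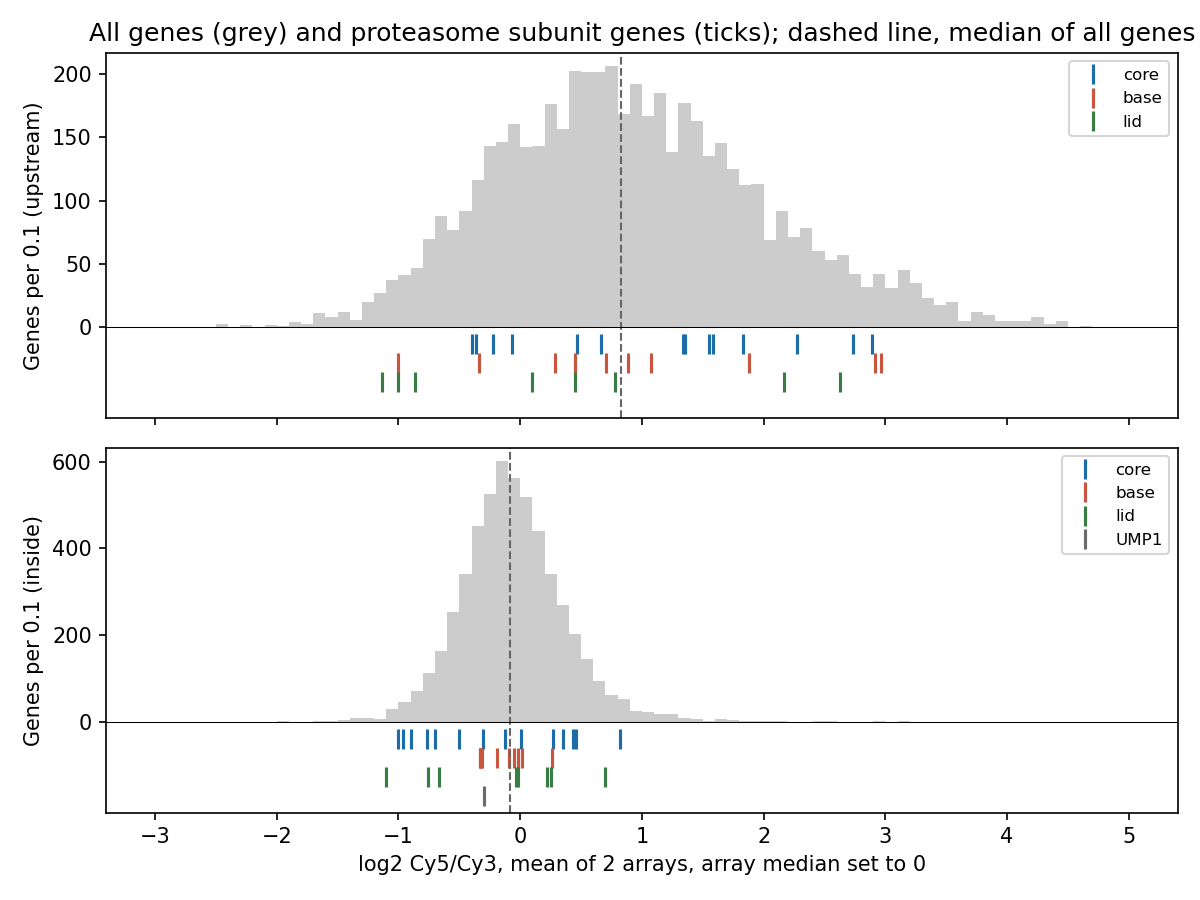
Number of genes per 0.1 step of log2 Cy5/Cy3 (grey; mean of 2 arrays) upstream at top and inside at bottom, with the core, base and lid genes and UMP1 as ticks beneath. The ticks spread over most of the width of the grey distribution and do not gather at either end.

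In the core particle 10 of 14 genes were called above upstream and 4 below, with a median of 1.35. The alpha subunits, which form the outer rings and the gate of the barrel, contributed 5 above and 2 below, with a median of 1.34, or 0.66 with the nearest upstream probes alone. PRE9, whose product is the alpha subunit that yeast can do without, was the highest member of the core at 2.88 on replicate 1 and 2.90 on replicate 2. Its mean of 2.89 ± 0.015 corresponds to a 7.40-fold ratio (limma adjusted p = 1.48e-07) and rests on a single probe 190 bp before the first coding probe. SCL1, PUP2 and PRE5 followed at 1.59, 1.34 and 1.35, and PRE8 stood at 0.66. SCL1 was at 2.85 without its saturated probe, and PRE8 was at 1.41 after normexp and 0.21 after loess. PRE10 and PRE6 were the alpha genes called below, at -0.22 and -0.065. After normexp background correction neither was called, with adjusted limma p-values of 0.0804 and 0.412.

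The beta subunits form the inner rings, and 3 of them, encoded by PRE3, PUP1 and PRE2, carry the proteolytic sites. Upstream 5 of the 7 beta genes were called above and 2 below, with a median of 1.55. PRE4, which encodes a beta subunit without a proteolytic site, was the highest of them at 2.74 and 2.73 on replicates 1 and 2. Its mean was 2.73 ± 0.0080, or 6.64-fold (limma adjusted p = 1.48e-07). The genes of the proteolytic subunits were split. PRE2 (1.83 ± 0.0080) and PUP1 (1.55 ± 0.021) lay above the median of all genes, while PRE3 was the lowest core gene with -0.39 on replicate 1 and -0.41 on replicate 2. PRE1 was next at -0.36 on replicate 1 and -0.37 on replicate 2. Both arrays lay below 0 for either gene, but after loess PRE3 was at -0.045 (limma adjusted p = 0.0711) and after normexp PRE1 was at -0.10 (limma adjusted p = 0.515), so neither call held there. PRE7 and PUP3 stood at 2.28 and 0.47.

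The base holds the ATPase ring, RPT1 to RPT6, which unfolds substrates and opens the gate of the core. All 6 ATPase genes were called above upstream, with a median of 0.79 and a range from 0.29 at RPT2 to 1.88 at RPT3. The median was 1.23 after normexp, 0.53 after loess and 1.47 with the nearest upstream probes alone. RPT3 gave 1.89 and 1.88 on replicates 1 and 2, and RPT2 gave 0.31 and 0.27. RPT4 had a wider gap than the other ATPase genes, with 0.98 on replicate 1 and 1.17 on replicate 2. RPT5 (0.70), RPT6 (0.89) and RPT1 (0.45) lay within the quartiles of all genes. RPT1 was not called after loess (0.0078, limma adjusted p = 0.700), nor RPT2 after normexp (0.69, limma adjusted p = 0.0767).

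The non-ATPase subunits of the base held the widest contrast. RPN10 and RPN13 encode receptors for ubiquitin chains, and RPN1 and RPN2 encode the large scaffold subunits on which receptors and substrate shuttles dock. RPN10 had 2.93 on replicate 1 and 3.00 on replicate 2, and RPN2 had 2.91 and 2.93. Both were among the 300 highest of the 5190 genes, at ranks 248 and 268, with ratios of 7.80-fold and 7.55-fold (limma adjusted p = 1.50e-07 and 1.48e-07). RPN1, the other scaffold gene, had -1.05 and -0.96 on replicates 1 and 2, a mean of -1.005 ± 0.059. RPN13, the other receptor gene, had -0.36 and -0.32. With its nearest upstream probe alone RPN13 was at 0.34 and called above (limma adjusted p = 6.91e-05). RPN10, RPN2 and RPN1 rest on 1 upstream probe each.

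The lid was divided as well, with 5 of 8 genes called above and 3 below upstream. Its median was 0.27. It was -0.012 when dim and saturated probes were left out, 0.022 after normexp and 0.88 with the nearest upstream probe alone. RPN7 (2.59 and 2.67 on replicates 1 and 2) and RPN9 (2.14 and 2.20) were high and encode structural subunits of the lid. RPN11 encodes the metalloprotease that cuts ubiquitin chains from substrates. It was the lowest member upstream, at -1.04 on replicate 1 and -1.24 on replicate 2, a 2.20-fold lower Cy5 than Cy3 signal relative to a typical probe. RPN5 had -1.01 on both arrays and RPN3 had -0.87 and -0.86. RPN8, whose product pairs with Rpn11, had 0.075 on replicate 1 and 0.12 on replicate 2. Its call turned with the processing, to -0.24 after normexp and -0.032 without centring, neither of them past the limma threshold. RPN12 (0.78) and RPN6 (0.45) were called above, though RPN12 was at -0.12 (limma adjusted p = 0.00141) when saturated probes were left out, and RPN6 after normexp was not called (limma adjusted p = 0.129).

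Inside the coding regions the ratios were smaller. Of 33 members 9 were called above, 20 below and 4 were not called, beside 38.3% above and 55.6% below of 5469 genes tested (93.9% in either direction). The median of the members was -0.12, against -0.082 over all genes, whose quartiles were -0.33 and 0.19. The genes not called were PRE3, RPT1, RPT4 and RPN9, with means from -0.021 to 0.012. After normexp 5 members were called above and 17 below, beside 19.2% of the 5469 genes above and 2279 genes below.

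The core rings differed in their medians inside, at 0.35 for the alpha genes (4 above, 3 below) and -0.51 for the beta genes (1 above, 5 below), but this difference was not tested. After normexp the alpha median was 0.053. PUP2, an alpha gene, was the highest member inside with 0.81 on replicate 1 and 0.83 on replicate 2. PRE8 was next within the core, with 0.46 on both arrays. At the low end of the core stood the beta genes PRE4, with -0.95 and -1.06, and PRE1, with -0.97 and -0.96. In the base 1 gene was called above and 7 below. RPT3 was high there with 0.26 on both arrays, or 0.50 without its saturated probe, while RPT5 and RPT2 were low at -0.33 ± 0.0019 and -0.33 ± 0.0063. After normexp RPT3 was at 0.052 (limma adjusted p = 0.686), and no base gene was called above inside. RPT4 was close to 0, with 0.021 on replicate 1 and 0.0022 on replicate 2 (limma adjusted p = 0.359). This value rests on 3 kept probes, and with the probe that was flagged as non-uniform on an array it was -0.29. Without the saturated first probe of that gene it was -0.71.

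In the lid 3 genes were called above inside and 4 below. RPN8 had 0.69 on replicate 1 and 0.70 on replicate 2, and RPN3 had 0.24 and 0.26. RPN3 was not called inside after normexp (0.12, limma adjusted p = 0.315). RPN6, which encodes a lid subunit that bridges to the core, was the lowest member inside with -1.12 and -1.09, a mean of -1.10 ± 0.024 (limma adjusted p = 2.39e-09). RPN5 stood at -0.78 and -0.74, so it was below the array median both upstream and inside. UMP1, which encodes a chaperone of core assembly that the finished proteasome degrades, had no upstream probe under its name and -0.30 on both arrays over 2 coding probes. A gene listed as BLM3 lies between SMC1 and SEC4, where a table of yeast genes places BLM10, the gene of an activator that caps the core. BLM3 was kept out of all counts. Its 1 upstream probe gave 0.12 and 0.35, an SD of 0.17 that no proteasome gene counted here reached upstream, and its 22 coding probes had a mean of -0.34 ± 0.0010.

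The question whether a gene's upstream region stood above its own coding region was answered for 32 members. The upstream value was higher in 24, lower in 7 and not called in RPN13 (-0.019, limma adjusted p = 0.448). Over 5008 genes tested, 77.9% were higher upstream and 18.8% lower, so the members again lay near the background. The median difference was 1.002 in the members and 0.92 over all genes. The core had 12 higher and 2 lower, the base 8 and 1, and the lid 4 and 4. The lid median was 0.15. It turned to -0.35 after normexp and -0.29 without dim and saturated probes, and it was 0.37 after loess and 1.08 with the nearest upstream probe alone.

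PRE4 had the largest difference, 3.69 on replicate 1 and 3.78 on replicate 2, since it was high upstream and low inside. Its mean of 3.73 ± 0.066 is a 13.3-fold step (limma adjusted p = 4.31e-08) and ranked 73 of 5008 genes. RPN10 followed with 3.22 and 3.34, and RPN2 with 2.99 and 3.03. PRE9 was level with RPN2 at 3.01 ± 0.015. After normexp PRE4 was at 2.53, behind RPN10 at 2.88 and RPN2 at 2.75. At the other end RPN3 had -1.11 and -1.12, RPN1 had -0.99 and -0.91, and RPN8 had -0.61 and -0.59. RPN3 was low upstream (-0.87) and above the array median inside (0.25), RPN1 was low upstream (-1.005) and near 0 inside (-0.053), and RPN8 was near 0 upstream (0.095) and high inside (0.70). With the nearest upstream probe alone RPN8 turned to 0.40. The inside value of RPN3 was 0.12 after normexp and was not called there.

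Across the 32 members, upstream and coding values were weakly related (Pearson's r = 0.10, Spearman's rho = 0.11), against 0.031 and 0.040 over 5008 genes. These coefficients describe genes measured on the same arrays. High upstream values occurred beside coding values on either side of 0, as in PRE2 and SCL1 (0.27 and 0.44 inside) and in PRE4 and PUP1 (-1.003 and -0.70 inside).

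**Figure D3:**
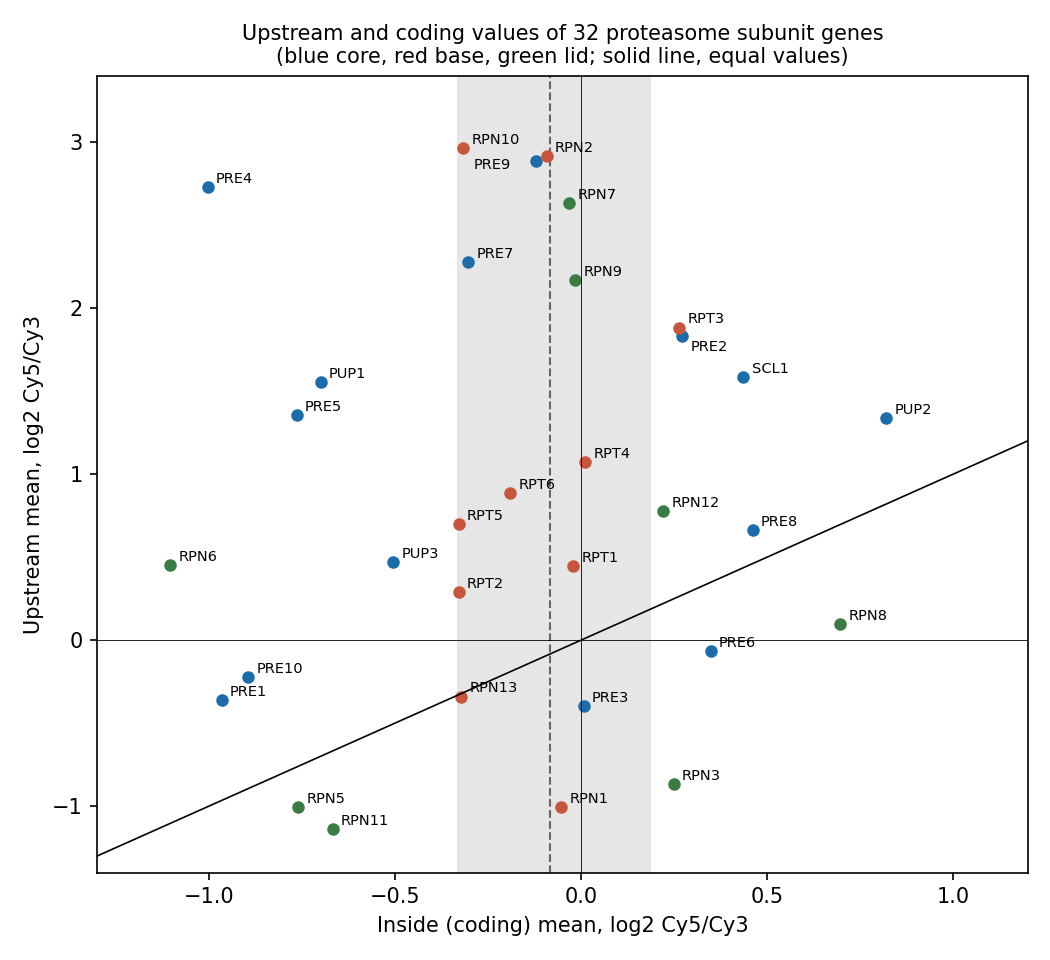
Upstream mean (vertical) against coding mean (horizontal) of 32 proteasome genes, as log2 Cy5/Cy3 over 2 arrays, with blue for core, red for base and green for lid. The diagonal marks equal values, the dashed line and grey band the median and quartiles of all coding regions. Most genes lie over the diagonal, PRE4 farthest from it, and RPN3 and RPN1 lie farthest beneath.

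Single probes showed where along these genes the ratio was high. The highest member probe lay between PUP2 and ENO1, the gene of a glycolytic enolase, at chr7:1000336-1000395, with 3.30 on replicate 1 and 3.57 on replicate 2. It stood 1306.5 bp before the first coding probe of PUP2, while the PUP2 probe nearest the gene gave 2.25 and 2.24. The next was between FUI1, a uridine transporter gene, and PRE7 at chr2:140624-140683, with 3.32 and 3.39. Those of RPN10 (chr8:498874-498933), RPN2 (chr9:220781-220840) and PRE9 (chr7:761178-761237) followed, and these are the upstream values of the genes given above. All 5 are upstream probes, and the last 3 of them lie between 157.5 and 191.5 bp before the first coding probe. The coordinates are those of the array annotation, counted from 1, on a build not given in the sources used here.

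The lowest member probes were all coding probes. The middle of the 3 coding probes of PRE4 had -1.62 on replicate 1 and -1.70 on replicate 2, and one 1565.5 bp into RPN2 had -1.54 and -1.55. The last coding probes of RPN5 (-1.49 and -1.39) and RPN6 (-1.43 on both) and the first of PRE10 (-1.32 and -1.26) came next. This order depended on the background correction. After normexp these probes of PRE4, RPN2 and RPN5 were at -0.020, -0.58 and -0.94. Those of RPN6 and PRE10 were then at -1.42 and -1.47. RPN2, the longest member by probes with 13 of them, had a probe in each group. Its first 5 coding probes lay above 0, the next 6 below, and a probe 2494.5 bp in reached 1.59 and 1.63 with Cy5 saturated on 1 array. The lowest probe of BLM3 was its first, at -1.73 and -1.71.

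**Figure D4:**
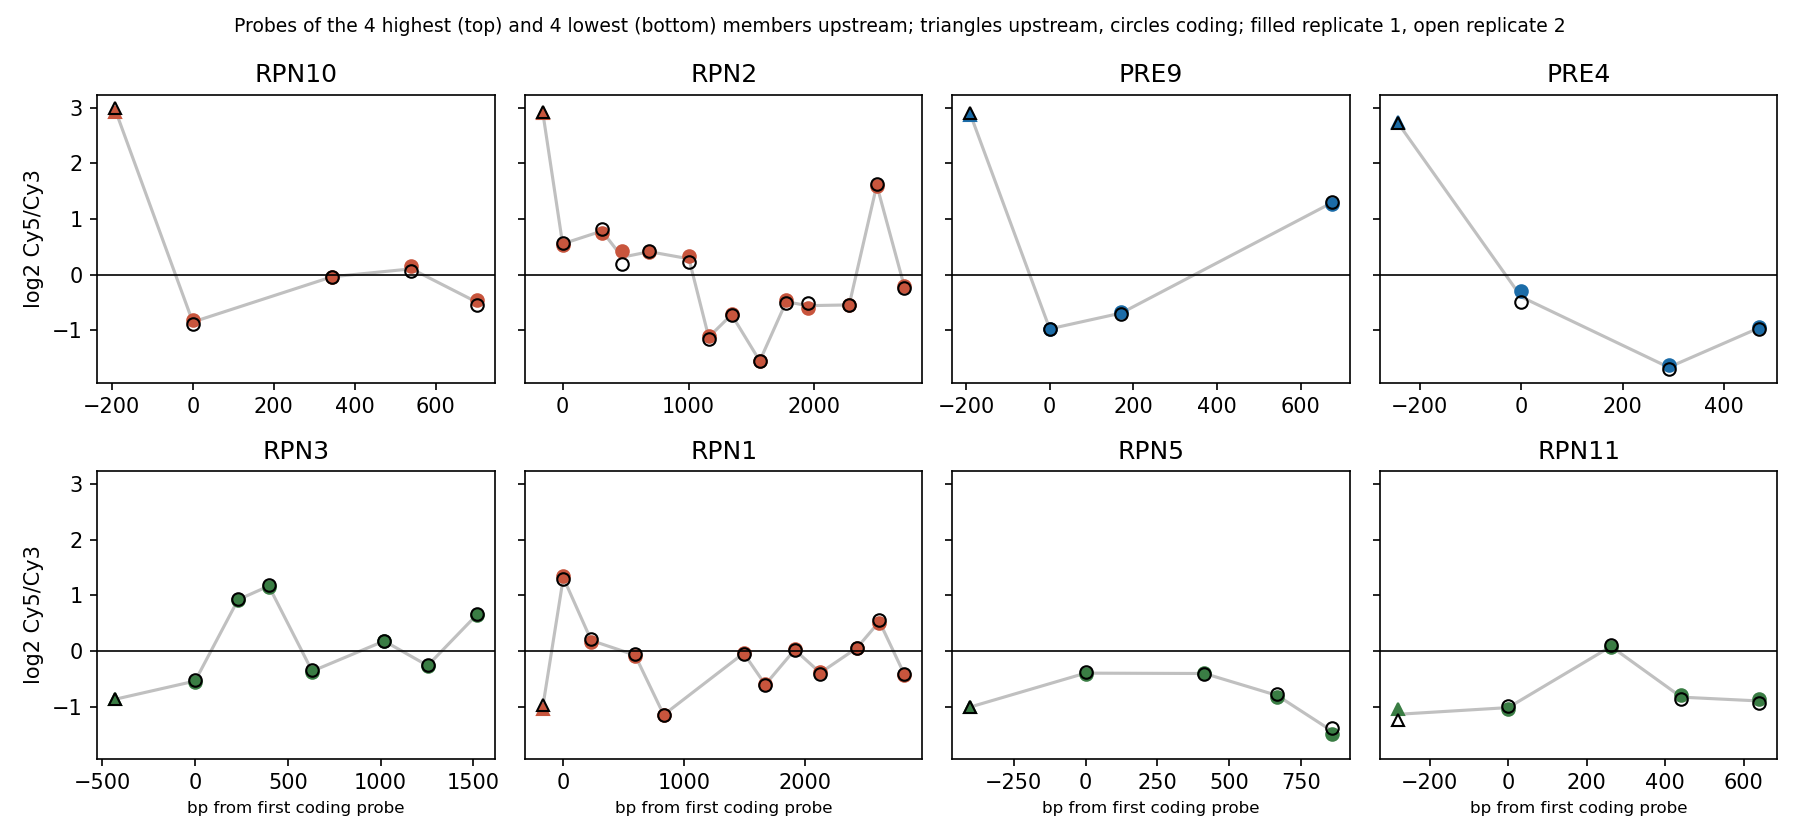
Log2 Cy5/Cy3 of single probes (triangles upstream, circles coding; filled replicate 1, open replicate 2) against distance in bp from the first coding probe, for the 4 highest genes upstream (top) and the 4 lowest (bottom). In the top row the value drops between the upstream and the first coding probe, from 2.96 to -0.85 at RPN10. In the bottom row RPN1 climbs from -1.005 to 1.31, while RPN5 and RPN11 stay near or below 0.

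The upstream ratio of many members differed between probes near to and far from the gene. In all, 19 members had at least 2 upstream probes and 13 had 1. In those 19 the probe nearest the gene had a median of 1.09 and lay above 0 in 16, while the farthest had a median of 0.24 and lay above 0 in 11. The median difference between nearest and farthest was 0.63, with 12 genes higher at the nearest probe and 7 lower. Over the 3137 genes with several upstream probes that median difference was 0.013, with 50.4% of genes higher at the nearest probe. Each probe of a divergent region counts for both genes, so the probe nearest 1 gene can be the farthest of its neighbour. Such pairs give differences of opposite sign, which draws these all-gene values to the middle by construction. They are thus no background for the members, whose farthest probe in a divergent region lies toward the neighbour. Whether the members differ from other genes in this was not tested. The nearest probe lay a median of 265.5 bp before the first coding probe in the members (157.5 to 430.5 bp) and 279.5 bp over all genes.

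PUP2 had the largest step between its upstream probes, from -0.58 at the farthest to 2.24 at the nearest. RPT5 went from -0.66 to 2.06 and RPT2 from -0.29 to 2.40. RPT2 had a second high probe 689 bp before the first coding probe, with 2.07 on replicate 1 and 1.79 on replicate 2, and its other 5 upstream probes lay below 0. SCL1, RPN8 and PRE2 were also higher next to the gene than far from it, at 2.85, 1.09 and 2.77. PRE5 ran the other way, from 2.35 far from the gene to 0.36 next to it, and PUP1 from 2.36 to 0.75. PRE10 and PRE3 had -0.89 next to the gene. Taking the nearest probe alone, 24 of the 32 members were called above and 7 below, with a median of 0.99. Over all 5190 genes 66.6% were then called above and 1539 genes below, with a median of 0.68. RPN13 then turned to 0.34 and PRE6 to 0.052, the latter no longer called (limma adjusted p = 0.0672).

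**Figure D5:**
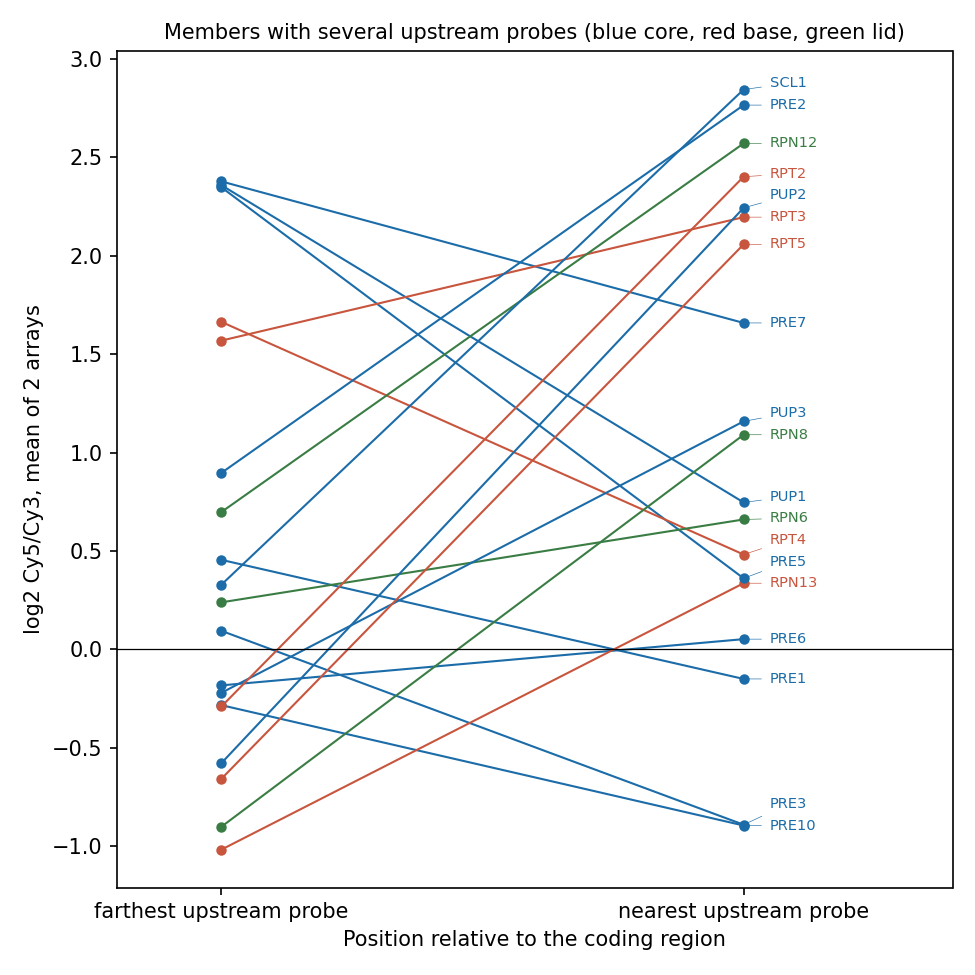
Log2 Cy5/Cy3 (mean of 2 arrays) at the farthest and at the nearest upstream probe of the 19 proteasome genes with several upstream probes, 1 line per gene, with blue for core, red for base and green for lid. Lines that climb to the right outnumber those that fall, 12 to 7, and the nearest probes reach 2.85 at SCL1.

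The step from the nearest upstream probe to the first coding probe ran in either direction. In PRE3 the nearest upstream probe had -0.89 and the first coding probe 1.55, the lowest such difference of the members at -2.44. In RPN1 these values were -1.005 and 1.31. In PRE9 they were 2.89 and -0.97, the highest difference at 3.86. The median of nearest upstream minus first coding probe was 1.33 in the members, with 25 above 0 and 7 below, and 0.78 over 5008 genes, of which 69.0% were above 0. From the first to the last coding probe the ratio was lower in 21 of 32 members, with a median difference of 0.42. Over 4608 genes it was lower in 51.1%, with a median difference of 0.034. Whether the members differ from other genes in either measure was not tested. Among the coding probes of a gene the median SD was 0.55 in the members and 0.60 over all genes.

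Many proteasome genes share their upstream region with a divergent neighbour, and the value of such a region belongs to both genes. This held for 20 members, while 12 had a tandem upstream region of their own. Divergent members had 15 genes called above and 5 below with a median of 0.83. Over 2714 genes of that kind 77.6% were called above and 18.9% below, with a median of 0.86. Tandem members had 8 above and 4 below with a median of 0.55. Over 2476 tandem genes 76.1% were above and 20.8% below, with a median of 0.80. The neighbours include RPL11A, a ribosomal protein gene, beside PRE2, and RPO31, the gene of the large subunit of RNA polymerase III, beside RPT5. No upstream probe was shared by 2 members.

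Genes that work with the proteasome were read in the same way, from lists of assembly chaperones, associated proteins and the ubiquitin system. Of 35 such genes 31 were found by name, and 25 were called above upstream, 5 below and 1, NPL4, was not called. These are 80.6% above and 16.1% below, near the 76.9% and 19.8% over all genes, and their median of 0.87 was near the 0.83 of all genes. All 4 assembly chaperone genes found were among those called above, from 0.53 at RPN14 (0.49 and 0.58) to 1.10 at NAS6 (1.06 and 1.15). Both encode chaperones that bind ATPases of the base during assembly. With the nearest upstream probe alone NAS6 was called below at -1.28 (limma adjusted p = 5.86e-07). RPN14 was called below at -0.93 without dim and saturated probes (limma adjusted p = 2.05e-06). After normexp NAS2, NAS6 and RPN14 were not called (limma adjusted p = 0.189, 0.158 and 0.202), while HSM3 was called above at 1.27.

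Among associated proteins HUL5, a ubiquitin ligase gene, was the highest upstream with 1.93 on replicate 1 and 1.81 on replicate 2. DSK2, which encodes a shuttle that carries ubiquitinated proteins to the proteasome, was the lowest with -0.91 and -0.93, and the only 1 of these 8 called below. HUL5 and DSK2 rest on 1 upstream probe each, and neither kept an upstream value when dim and saturated probes were left out. SEM1, a small lid-associated subunit gene, had 0.32 and 0.33 upstream, and its single coding probe had -1.06 and -1.09. In the ubiquitin system 14 of 19 genes (73.7%) were called above and 4 (21.1%) below, again near the shares over all genes. SHP1, which encodes a cofactor of the Cdc48 segregase, reached 3.26 and 3.25, and RAD6, a ubiquitin-conjugating enzyme gene, was the lowest at -1.11 and -1.13. RPN4, the activator of the proteasome genes, had 1.71 and 1.74 upstream and -0.12 and -0.098 inside, a step of 1.83 ± 0.0069 between them (limma adjusted p = 6.71e-08). This step turned with the choice of probe. With its nearest upstream probe alone RPN4 was at -0.29 upstream (limma adjusted p = 0.000134), and its step was -0.18 (limma adjusted p = 0.00117).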

How the data were processed

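Nucleosomal DNA (Cy5) and genomic DNA (Cy3) were hybridised together on each of 2 arrays, which form 1 group of replicates per the labels. The deposited scanner files hold spot intensity on a linear scale. The processed intensity was made with Agilent Feature Extraction 9.1.3.1 by background subtraction, detrending and 1 linear dye factor per channel, per the file headers. The deposited value table holds log2 ratios that equalled log2 of processed Cy5 over Cy3 to within 5.00e-06, with medians of -0.13 and -0.13 and no centring. Deposited flags mark non-uniform, dim and saturated spots.

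Log2 ratios were computed from processed intensities and centred on each array's median, with no loess. Of 41775 probes, 41454 were kept after non-uniform spots and spots with Cy3 not well above background on an array were left out. Of the proteasome probes, 8 were saturated in Cy5 on both arrays and 2 on 1, and such values can understate the ratio. In 1 of them, between PUP2 and ENO1, Cy3 was saturated as well, so its ratio can err either way. Raw Cy5 intensity had medians of 32997 and 33242 on replicates 1 and 2, and raw Cy3 intensity 17885 and 16928. Gene means were set against 0 across all genes by an intercept model in limma 3.58.1 (lmFit and eBayes; R 4.3.3). It left 1 residual degree of freedom per gene, and p-values were adjusted by Benjamini-Hochberg with a threshold of 0.05. The test was tested on simulated data with known shifts, drawn independently for the 2 arrays, and the outcome is not given here. That simulation does not bear on whether differences between the real arrays are technical. Other steps used Python 3.11.15 with pandas 2.3.3, numpy 2.4.6 and matplotlib 3.10.9.

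The members and gene lists were chosen with earlier results of these data known. All members could be named by subcomplex. Values on each array were to be given for the 2 highest and 2 lowest upstream and inside in core, base and lid, the 3 largest and 3 smallest differences, UMP1 and BLM10, the highest and lowest of each related list, RPN4 and SEM1, with the 5 highest and 5 lowest probes. Other values were added to complete each subcomplex and were chosen after they were seen. Alternatives were normexp background correction with an offset of 50, loess, no filter, leaving out dim and saturated probes, the uncentred table, the nearest upstream probe alone, leaving out divergent regions and leaving out each array. Gene strand was checked through a table of gene names and matched the upstream side for 32 of 32 members. Promoter sequence was not analysed here.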

Additional observations from a re-analysis of the deposited data

How the results depend on the processing

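Upstream, the members' median was 1.03 after normexp, 0.61 after loess, 0.68 without dim and saturated probes, 0.61 without centring, 0.99 for the nearest probe alone and 0.55 without divergent regions. That last setting leaves 12 members, with 8 called above and 4 below upstream, and 10 higher and 2 lower upstream than inside. Over all 2579 genes of that setting 76.0% were called above upstream and 534 genes below. Of 2482 genes 77.0% were higher upstream than inside and 478 genes lower. The inside median was -0.26 after normexp, -0.13 after loess, -0.19 without a filter, -0.20 without dim and saturated probes and -0.25 without centring. After normexp 5 of 33 members were called above inside, beside 19.2% of all genes. The median difference between upstream and inside was 0.98 after normexp, 0.66 after loess, 1.44 for the nearest probe and 0.64 without divergent regions. Leaving out an array gave medians of 0.73 to 0.75 upstream, -0.12 to -0.12 inside and 0.98 to 0.998 for the difference. Counts have no such value, since 1 array leaves no residual degree of freedom.

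Direction turned for some members, listed here without the related genes, and the cause was not tested. Upstream these were RPN8 (-0.24 after normexp, -0.032 without centring), RPN12 (-0.12 without saturated probes), and PRE6 and RPN13 (0.052 and 0.34 for the nearest probe). Inside they were PRE3 (-0.13 after loess, -0.12 without centring), RPN7 and RPN12 (0.086 and -0.10 after loess) and RPT4 (-0.29 without a filter, -0.71 without saturated probes, -0.12 without centring). For the difference, loess gave PRE8 -0.26, PRE3 0.083, RPN13 0.088 and RPN5 0.015. The nearest probe gave PRE10 -0.00086, RPN13 0.66 and RPN8 0.40, and RPN12 was -0.074 after normexp and -0.34 without saturated probes. Calls were also lost at 15 gene values after normexp and 4 after loess. No paired analysis was possible because the arrays form 1 group and each holds both DNAs. Many values rest on 1 upstream probe, and both arrays share 1 slide and 1 dye orientation. Probes saturated in Cy5 alone give a lower bound, and the 1 saturated in both dyes gives none.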
